A study of Mus musculus with 2 samples.

Results

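The Krüppel-like factor genes are described here by H3K4me3, a histone mark found at the starts of active genes, in group 2 innate lymphoid cells (ILC2s) of the adult mouse lung. The members were 10 genes found by symbol in the GENCODE M21 annotation of GRCm38, namely Klf2, Klf3, Klf4, Klf6, Klf7, Klf10, Klf11, Klf12, Klf13 and Klf16, out of 22028 protein-coding genes. Every listed peak that overlapped a member's gene body or lay within 1000 bp of any of its transcript starts was taken. The control library came from 8-week-old offspring of PBS-treated mothers and the maternal-asthma library from 8-week-old offspring of OVA-treated mothers. With 1 library each, there is no replicate of any value and no test between the groups. The wild-type C57BL/6J mothers, aged 6 to 8 weeks, received intraperitoneal alum with or without 100 µg ovalbumin (OVA) on days -21 and -7. They were mated with untreated males and were then given 500 µg OVA or PBS into the nose every 2 to 3 days between gestation days 4 and 17. The labels name no allergen given to the offspring. Each group was 1 pregnant dam in 1 experiment, so litter and maternal treatment cannot be told apart. Each library was made from about 3000 sorted ILC2s with CATCH-seq, which cuts chromatin with micrococcal nuclease, without crosslinking, before immunoprecipitation from few cells. Animals of both sexes were used in the study, and the labels do not say how many offspring gave cells to a library.

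KLF proteins bind GC-rich and CACCC-type DNA through C2H2 zinc fingers at the end of the protein and are sorted by the partners that the rest of the protein recruits. Klf2, Klf4, Klf6 and Klf7 are mainly activators, Klf3 and Klf12 recruit the corepressor CtBP, and Klf10, Klf11, Klf13 and Klf16 carry a domain that binds the corepressor Sin3A. In lymphocytes the family is best known through Klf2, which controls resting state and tissue exit. H3K4me3 usually lies as a block just downstream of a start, often over CpG-rich DNA.

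The lists of peaks held 42126 peaks in the control library and 51610 in the maternal-asthma library, with median widths of 315 and 249 bp. Among ILC2 markers, 9 of 12 had a start peak in the control library and 6 of 12 in the maternal-asthma library. The shares over all coding genes were 50.9% and 41.9%. Gata3, Il7r and Il5 had a start peak only in the control library, as did 9.71% of coding genes. Of 33 markers of T cells, B cells, macrophages, neutrophils, epithelium, endothelium and fibroblasts, 4 had a start peak in the control library, namely Lck, Epcam, Cdh1 and Kdr, and 0 in the maternal-asthma library. Read counts per gene were not used here. The number of fragments at each summit was therefore solved from the deposited fold and −log10 p, on the assumption that peaks were called without a control. The median over coding genes was 26 fragments at the strongest start peak in the control library and 16 in the maternal-asthma library. The smallest solved background was 1.83 and 1.57 fragments. Library depth was not measured here, and depth, enrichment and group cannot be told apart as sources of a missing peak.

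The promoters of 4 members are printed first, chosen as examples for the reasons given after them, from the RefSeq promoter table of GRCm38.p6, 5′ to 3′ on the gene's strand. Capitals mark GC boxes (GGGCGG, or CCGCCC on the other strand), CACCC boxes (CACCC or GGGTG) and CCAAT boxes (CCAAT or ATTGG), searched on both strands. Neighbouring GC boxes share bases in the Klf4 and Klf11 sequences. The sequences stop at most 30 bases into the annotated exon.
Klf2, chr8:72318812-72319062, plus strand: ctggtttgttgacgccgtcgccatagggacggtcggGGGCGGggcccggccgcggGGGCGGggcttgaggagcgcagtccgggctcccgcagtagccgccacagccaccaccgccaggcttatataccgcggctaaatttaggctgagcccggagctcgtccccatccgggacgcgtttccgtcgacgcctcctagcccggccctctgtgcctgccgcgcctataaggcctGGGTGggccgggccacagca
Klf4, chr4:55532437-55532725, minus strand: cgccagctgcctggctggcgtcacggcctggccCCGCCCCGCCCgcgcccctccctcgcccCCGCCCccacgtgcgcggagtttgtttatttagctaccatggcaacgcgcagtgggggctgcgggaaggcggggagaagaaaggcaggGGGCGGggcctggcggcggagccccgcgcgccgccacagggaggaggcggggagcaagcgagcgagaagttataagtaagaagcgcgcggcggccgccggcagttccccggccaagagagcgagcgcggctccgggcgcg
Klf6, chr13:5861239-5861511, plus strand: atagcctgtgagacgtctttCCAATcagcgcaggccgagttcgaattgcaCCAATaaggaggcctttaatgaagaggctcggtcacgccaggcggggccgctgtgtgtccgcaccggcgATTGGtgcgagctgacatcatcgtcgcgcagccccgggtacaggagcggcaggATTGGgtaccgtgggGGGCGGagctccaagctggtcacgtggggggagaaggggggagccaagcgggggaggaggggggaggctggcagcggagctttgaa
Klf11, chr12:24651121-24651303, plus strand: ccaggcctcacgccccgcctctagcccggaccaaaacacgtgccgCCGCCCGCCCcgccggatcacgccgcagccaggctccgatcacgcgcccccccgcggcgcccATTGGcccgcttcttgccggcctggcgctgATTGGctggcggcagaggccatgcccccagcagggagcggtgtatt

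Klf2 is shown because its peaks were in 1 list alone, Klf4 because its promoter window fell in the gap between its peaks, Klf6 because its window held 4 CCAAT boxes, and Klf11 as a window that the peaks of both libraries reached into, as they also did at Klf3 and Klf7. Of the 10 members, 8 had an entry in the table. A GC box was found in 7 of these 8 windows of 300 bases, against 35.7% of 32851 promoters of the same length. Those promoters belong to 27025 genes, a larger set than the coding genes used elsewhere here, and were not matched to the members by GC content. CACCC was found in 5 of 8 against 57.5%, CCAAT in 3 of 8 against 37.4%, TATAAA in 1 of 8 against 13.6%, and TGACGTCA, the full cAMP response element, in 0 of 8 against 1.79%. Klf12 was the window without a GC box and the one with TATAAA. Its RefSeq window lies at an annotated start 134915 bp downstream of the gene's 5′ end, where no peak was listed. In the 1001 bp around the 5′ ends, the members held between 60 CpG sites (Klf12) and 125 (Klf3), all above the median of 41 over 21931 coding genes. The ratio of observed to expected CpG was lowest in Klf12 (0.625) and highest in Klf4 (0.960), with a median of 0.552 over all genes.

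H3K4me3 peaks stood at a larger share of the members than of coding genes in general, and fewer were listed in the maternal-asthma library. A start peak, meaning one within 1000 bp of a transcript start, was listed at 10 of 10 members in the control library, where 50.9% of coding genes had one. In the maternal-asthma library 8 of 10 members had a start peak, against 41.9% of coding genes. The members were chosen with earlier results of these data known, so these shares are a description and not a test. Of the 7 Klf genes that were not members, 4 had a start peak in the control library and 2 in the maternal-asthma library. Klf2 and Klf12 had a start peak in the control library only, that is 2 of 10 members beside 9.71% of coding genes. In all, 22 peaks fell on the members in the control library, 16 of them at starts, and 14 in the maternal-asthma library, 12 of them at starts. The summit lay downstream of the nearest start in 11 of 16 and 9 of 12 start peaks, and the share was 75.5% and 74.8% over coding genes.

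Start peaks found in the maternal-asthma library mostly had a counterpart in the control library, as they did over coding genes. Of 12 maternal-asthma start peaks at the members, 11 (91.7%, exact Clopper-Pearson 95% interval 61.5 to 99.8%) overlapped a control peak by at least 1 bp, beside 95.6% over coding genes. The exception was at Klf4. In the other direction, 10 of 16 start peaks of the control library (62.5%, 35.4 to 84.8%) overlapped a maternal-asthma peak, beside 70.0% over coding genes. Intervals cover counting error only. Over all 22 control and 14 maternal-asthma peaks at the members, at starts or not, the shares were 54.5% and 92.9%. With an overlap of at least 50% of both peaks they were 22.7% and 35.7%. The paired summits mostly lay close together, with a median distance of 31 bp over 11 pairs at the members and 67 bp over 9627 pairs at coding genes. The distances at the members ran from 1 to 613 bp. The single control summit of Klf10 was paired with both maternal-asthma peaks there, and peaks without an overlap, as at Klf4, gave no pair. At Klf13 the summits were 664 and 665 bp from the 5′ end.

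**Figure D1:**
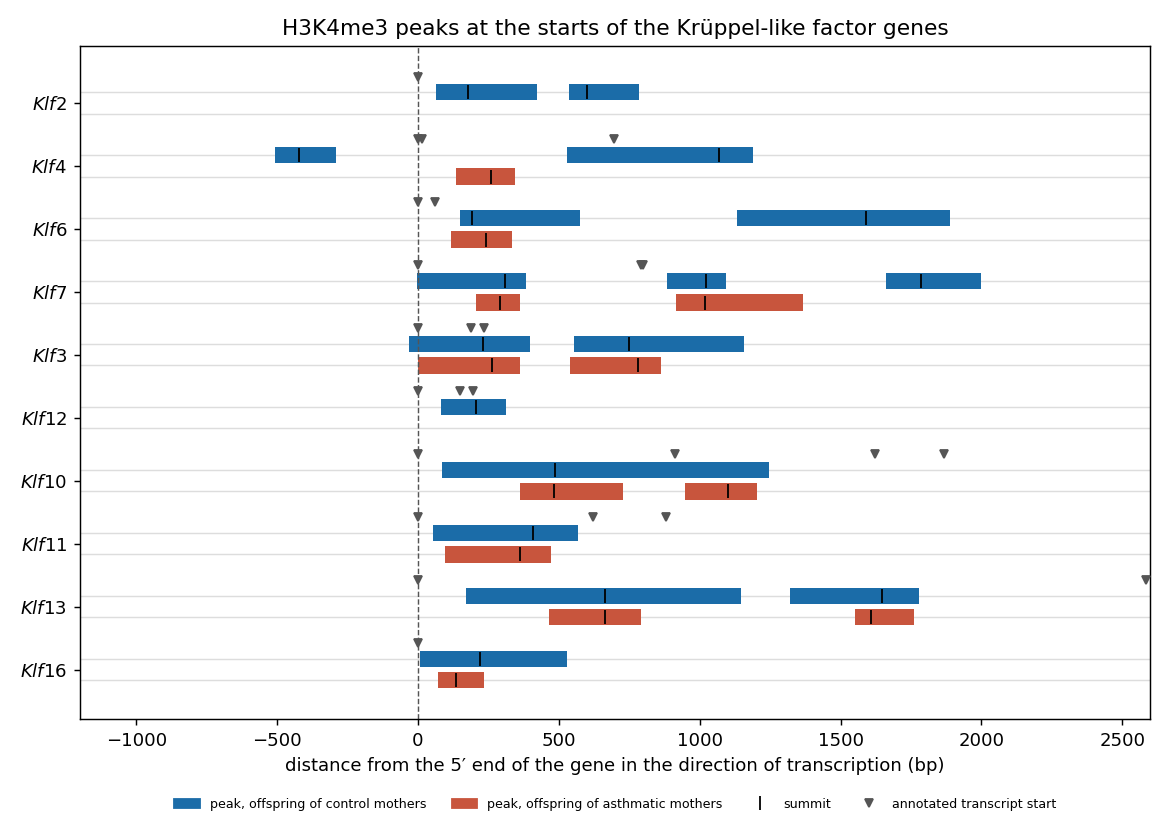
Peaks of the 10 members within 1200 bp upstream and 2600 bp downstream of the gene's 5′ end (horizontal axis, bp in the direction of transcription), 1 row per library, blue for the control library and red for the maternal-asthma library, with black ticks at summits and triangles at annotated transcript starts. Most peaks lie downstream of the 5′ end, Klf2 and Klf12 have blue bars only, and the red bar of Klf4 lies between its blue bars.

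Among the activators, Klf2, Klf4 and Klf6 showed the largest differences between the lists. Klf2, which restrains lymphocyte activation and movement, is a short gene of 2624 bp (ENSMUSG00000055148.7, chr8:72319033-72321656, plus strand). In the control library its peaks were at chr8:72319099-72319455, 357 bp wide with a fold of 5.60 over the caller's background and a −log10 q of 8.98, and at chr8:72319571-72319818, 248 bp wide with fold 3.58 and −log10 q 3.28. The first ran from exon 1 over intron 1 to the edge of exon 2 and the second lay in exon 2, all of it coding. No peak was listed anywhere in Klf2 in the maternal-asthma library. By −log10 q the first peak stood at percentile 60.7 of its list and the second at percentile 1.33, and among the strongest start peaks of coding genes Klf2 stood at percentile 19.4 by −log10 q and 17.5 by fold. Their summits carried 21 and 13 fragments.

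Klf4, one of the reprogramming factors of stem cell work (ENSMUSG00000003032.8, chr4:55527143-55532466, minus strand), had peaks at different places in the lists. In the control library, a peak at chr4:55531275-55531937 (663 bp, fold 4.04, −log10 q 6.71) covered exons and introns around a downstream start, and a second at chr4:55532758-55532974 (217 bp, fold 3.96, −log10 q 6.50) lay upstream of the gene. The only maternal-asthma peak, chr4:55532120-55532330 (211 bp, fold 3.59, −log10 q 3.05), lay in exon 1 of the longest transcript, outside its coding sequence, in the gap between the control peaks, and rested on 12 fragments at the summit. The promoter printed for Klf4 lay in no peak of either list, 33 bp from the nearest control peak and 107 bp from the maternal-asthma peak. Klf4 was the member that had start peaks in both libraries without any overlap between them.

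Klf6, a widely expressed early-response factor (ENSMUSG00000000078.7, chr13:5861482-5870394, plus strand), had a start peak in both libraries and a peak in its first intron in the control library. The start peak was at chr13:5861630-5862056 (427 bp, fold 3.34, −log10 q 5.62) in the control library and at chr13:5861600-5861815 (216 bp, fold 4.62, −log10 q 6.72) in the maternal-asthma library, with summits 49 bp apart. The intronic peak at chr13:5862616-5863371 was 756 bp wide, had the higher −log10 q of the control pair (8.29) and was listed in the control library only. The promoter printed for Klf6 ended 119 bp short of the control start peak and 89 bp short of the maternal-asthma one. The solved background around the control start peak, 7.37 fragments, was the highest at the strongest start peak of any member.

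Klf7, known from the development of neurons (ENSMUSG00000025959.13, chr1:64029447-64122282, minus strand), had the longest joined domain in the control library, 2004 bp, of which peaks covered 936 bp, fewer than at Klf13, Klf6, Klf10 and Klf3. With peaks of a −log10 q of at least 5 the domain was 1099 bp, shorter than those of Klf3, Klf4, Klf6, Klf10 and Klf13. It held 3 control peaks, at chr1:64121898-64122286 (389 bp, −log10 q 9.35), chr1:64121188-64121397 (210 bp, −log10 q 8.03) and chr1:64120283-64120619 (337 bp, −log10 q 3.67). The first lay at the 5′ end and the second just past the downstream starts, 791 and 800 bp into the gene. The maternal-asthma counterparts of these were listed at chr1:64121919-64122074 (156 bp, −log10 q 5.73) and chr1:64120915-64121365 (451 bp, −log10 q 5.70), with summits 15 and 6 bp from the control summits. The third control peak, which stood at percentile 2.85 of its list, had no counterpart.

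Of the CtBP-binding pair, Klf3 was marked alike in place in both libraries and by the strongest start peak of each member Klf12 had the lowest −log10 q, the fewest fragments and the narrowest domain in the control library. Klf3 (ENSMUSG00000029178.14, chr5:64803388-64832901, plus strand), a repressor that limits activation by other family members, carried a peak on exon 1 and another in intron 1. In the control library they were at chr5:64803356-64803785 (430 bp, fold 5.21, −log10 q 11.9) and chr5:64803942-64804545 (604 bp, fold 5.35, −log10 q 12.6). Their maternal-asthma counterparts were at chr5:64803387-64803751 (365 bp, fold 5.43, −log10 q 8.14) and chr5:64803929-64804251 (323 bp, fold 4.15, −log10 q 4.58). Both pairs of summits were 31 bp apart. Starts of C230096K16Rik and Gm20033 lie within 1000 bp of these peaks, so the mark cannot be given to Klf3 alone.

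Klf12 (ENSMUSG00000072294.5, chr14:99870632-100284679, minus strand), a repressor in a gene of 414048 bp, had a single start peak at chr14:100284368-100284597 in the control library, 230 bp wide with a fold of 4.28, a −log10 q of 4.88 and 15 fragments at the summit. No start peak was listed in the maternal-asthma library. Just beyond the limit of 1000 bp, at the start of Gm41231, a control peak 1013 bp upstream of Klf12 had a −log10 q of 11.0 and a maternal-asthma peak 1213 bp upstream had one of 3.52. With starts taken within 2000 bp the percentile of Klf12 among coding genes in the control library was 31.2, against 2.69 within 1000 bp. The other peaks in Klf12, 4 in the control library and 2 in the maternal-asthma library, lay in introns and wholly in repeat-masked DNA. The 75 bases around their summits occurred again at between 101 and 1222 places in the reference, and whether reads from those places were counted at Klf12 was not tested. The peak in intron 3, listed in both libraries at chr14:100061633-100061837 and chr14:100061632-100061861, is printed to show such a sequence, from the reference at chr14:100061702-100061776 on the plus strand, with 1022 further copies and no capitals.
Klf12 intron 3 summit: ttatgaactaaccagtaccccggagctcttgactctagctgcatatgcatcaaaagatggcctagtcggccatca
By contrast, the summit sequence was single-copy in 16 of 16 and 12 of 12 start peaks of the members.

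The Sin3A-binding genes had a start peak in both libraries in all 4 cases. Klf10, an early gene of TGF-β signalling (ENSMUSG00000037465.10, chr15:38291463-38300706, minus strand), had 1 control peak at chr15:38299459-38300621 (1163 bp, fold 5.63, −log10 q 12.2), the widest single peak among the members. Over this stretch the maternal-asthma library held 2 peaks, at chr15:38299977-38300343 (367 bp, fold 4.70, −log10 q 5.73) and chr15:38299501-38299757 (257 bp, fold 6.38, −log10 q 10.5). The latter had the highest −log10 q, fold and number of fragments (22) of all member start peaks in that list.

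Klf11, a relative of Klf10 in TGF-β responses (ENSMUSG00000020653.12, chr12:24651274-24662789, plus strand), had 1 peak in each list, at chr12:24651327-24651841 (515 bp, fold 7.84, −log10 q 15.9) and chr12:24651370-24651747 (378 bp, fold 5.85, −log10 q 6.86). The control peak had the highest fold and −log10 q of all member peaks in its list. Of the 300-base window whose first part is printed for Klf11, 94 bp lay in the control peak and 51 bp in the maternal-asthma peak. The printed bases themselves ended 24 and 67 bp short of these peaks and lay in neither.

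Klf13, which drives late expression of the chemokine gene Ccl5 in T cells (ENSMUSG00000052040.10, chr7:63886351-63938915, minus strand), had a pair of start peaks in each list. The peak over exon 1 was at chr7:63937770-63938746 (977 bp, fold 4.20, −log10 q 8.93) in the control library and at chr7:63938123-63938451 (329 bp, fold 4.06, −log10 q 5.17) in the maternal-asthma library. The peak in intron 1 was at chr7:63937137-63937594 (458 bp, −log10 q 6.50) and chr7:63937153-63937364 (212 bp, −log10 q 4.38). A further control peak of 190 bp deeper in intron 1, chr7:63928714-63928903, lay wholly in repeat-masked DNA but its summit sequence had 0 further copies.

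Klf16, a repressor with a compact gene (ENSMUSG00000035397.8, chr10:80567124-80577321, minus strand), was marked on exon 1 in both libraries. The control peak at chr10:80576791-80577312 was 522 bp wide with fold 6.29 and −log10 q 12.9. The maternal-asthma peak at chr10:80577086-80577249 was 164 bp wide with fold 4.85 and −log10 q 6.24, and lay wholly inside the control peak. It was the narrowest start domain of any member.

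Width was then compared after joining peaks at most 1000 bp apart into start domains. The median joined width of the members was 1176.5 bp (range 230 to 2004, n = 10) in the control library and 610.5 bp (164 to 1299, n = 8) in the maternal-asthma library. Over all coding genes with a start peak the medians were 663 bp (interquartile range 453 to 937) and 409 bp (272.5 to 625). In the control library the order was Klf7 (2004 bp), Klf6 (1742 bp), Klf4 (1700 bp), Klf13 (1610 bp), Klf3 (1190 bp), Klf10 (1163 bp), Klf2 (720 bp), Klf16 (522 bp), Klf11 (515 bp) and Klf12 (230 bp). In the maternal-asthma library it was Klf13 (1299 bp), Klf7 (1160 bp), Klf3 (865 bp), Klf10 (843 bp), Klf11 (378 bp), Klf6 (216 bp), Klf4 (211 bp) and Klf16 (164 bp). With 1 library per group there is no spread against which to set neighbours in these orders. A domain of 2 or more peaks was found at 6 of 10 and 4 of 8 members, beside 25.9% and 20.9% of coding genes with a start peak.

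All 8 members with a start peak in both libraries were wider in the control library, as were 92.2% of the 9068 coding genes with one in both. The narrowest peak listed also differed, at 190 bp in the control library and 156 bp in the maternal-asthma library. Whether this limit bears on the widths was not tested. The median ratio of widths, control over maternal asthma, was 1.55 at the members (1.24 at Klf13 to 8.06 at Klf4 and Klf6) and 1.51 over coding genes (interquartile range 1.19 to 2.22). At least 1.5 times the width in the control library was found at 4 of 8 members, Klf4, Klf6, Klf7 and Klf16, beside 50.5% of coding genes. At least 1.5 times the width in the maternal-asthma library was found at 0 of 8, beside 1.17%. By the widest single start peak, without joining, the count of members at least 1.5 times as wide in the control library was 6 of 8, all but Klf7 and Klf11, beside 53.3% of coding genes. The median ratio was then 2.47 at the members and 1.55 over coding genes. With peaks of a −log10 q of at least 5 it was 3.18 at the members. The ratios of 8.06 at Klf4 and Klf6 came from domains in which 2 control peaks were joined and set against a single peak. Without joining they were 3.14 at Klf4 and 1.98 at Klf6, and by bases covered within 2000 bp of a start they were 4.17 and 5.48. The ratio of 1.24 at Klf13 was 2.97 without joining and 4.89 with peaks of a −log10 q of at least 5. The ratio of 1.38 at both Klf10 and Klf3 became 3.17 at Klf10 without joining and 3.26 at Klf3 with peaks of that −log10 q. The ratio at Klf7 depended on the settings. It was 1.73 as described, 0.863 for the widest single peaks without joining and 0.947 with peaks of a −log10 q of at least 5.

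By role, the activators had the widest joined domains in the control library, with a median of 1721 bp (720 to 2004, n = 4), against 842.5 bp (515 to 1610, n = 4) for the Sin3A-binding genes and values of 1190 and 230 bp for Klf3 and Klf12. In the maternal-asthma library the order of these groups differed, with 216 bp (211 to 1160, n = 3) for the activators, 610.5 bp (164 to 1299, n = 4) for the Sin3A-binding genes and 865 bp for Klf3. The groups overlapped in both libraries. The order in the control library rested on joining, since by the widest single start peak the medians were 408 bp (357 to 663) for the activators and 749.5 bp (515 to 1163) for the Sin3A-binding genes.

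**Figure D2:**
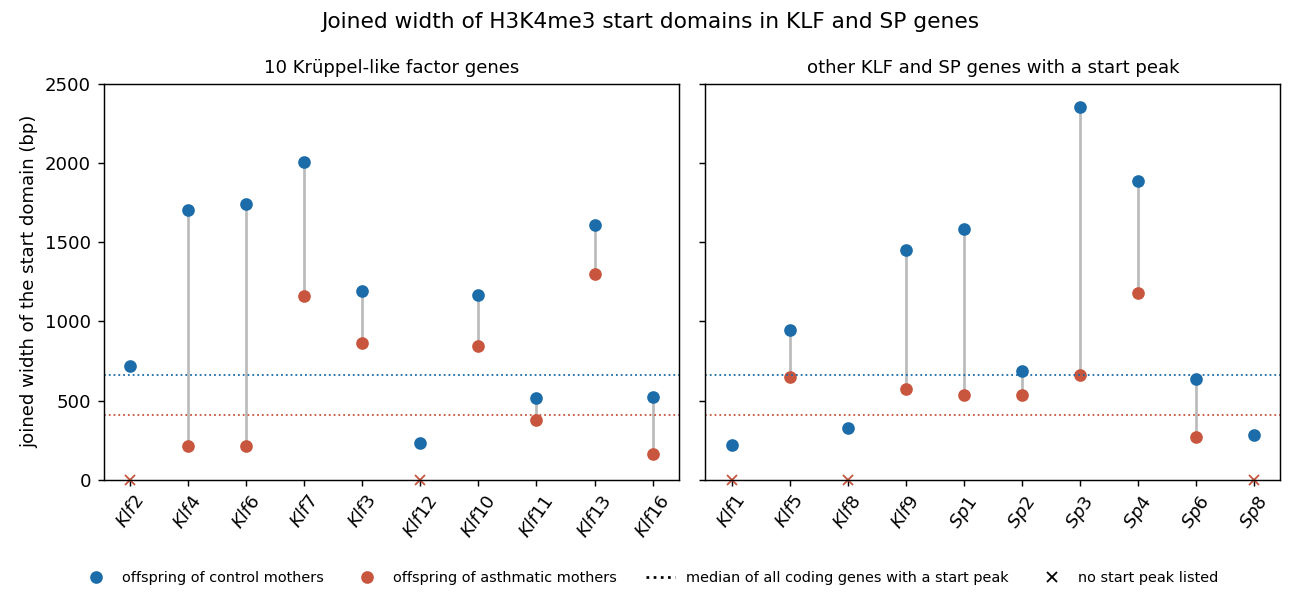
Joined width of the start domain in bp (vertical axis) for the 10 members (left) and the other KLF and SP genes with a start peak (right), blue for the control library and red for the maternal-asthma library, with crosses where no start peak was listed and dotted lines at the medians of all coding genes, 663 and 409 bp. Every joined pair has its blue point above the red one, and the pairs of Klf4, Klf6 and Sp3 are the furthest apart.

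The members ranked low by −log10 q, in the middle by fragments at the summit, and high by joined width in the control library. Each gene was ranked by its strongest start peak among the coding genes with a start peak in the same list, with 50 as the middle. By −log10 q the median percentile of the members was 20.1 (2.69 at Klf12 to 64.9 at Klf11, n = 10) in the control library and 28.2 (0.965 at Klf4 to 74.7 at Klf10, n = 8) in the maternal-asthma library. Above the 50th percentile stood 1 of 10 members, Klf11, in the control library and 2 of 8, Klf3 and Klf10, in the maternal-asthma library. By joined width the medians were 88.6 (3.37 to 99.5) and 66.3 (4.67 to 97.6), with 7 of 10 and 4 of 8 members above the 50th percentile. Without joining, the median widths of the members were 518.5 and 347 bp. Their rank among coding genes by that width is not given here, so the high rank holds for joined domains only. Klf7 stood at the 20.9th percentile by −log10 q and at the 99.5th by width in the control library.

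The number of fragments at the strongest start peak was near the median of coding genes. It ranged from 15 (Klf12) to 33 (Klf3) with a median of 27.5 in the control library and from 12 (Klf4) to 22 (Klf10) with a median of 17.5 in the maternal-asthma library, beside medians of 26 and 16 over coding genes. The corresponding median percentiles were 58.8 and 60.0. The caller's background at these peaks, solved together with the fragments, had a median of 4.66 fragments (2.70 at Klf11 to 7.37 at Klf6) and of 2.67 (1.57 at Klf11 to 3.68 at Klf13), beside 2.49 and 1.67 over coding genes. By background the members stood at a median percentile of 94.9 in the control library, with 10 of 10 above the 50th, and of 93.3 in the maternal-asthma library, with 7 of 8 above it. Klf11, which was highest by −log10 q in the control library, had the lowest background of the members in both libraries. Whether the background accounts for the low ranks by −log10 q was not tested.

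**Figure D3:**
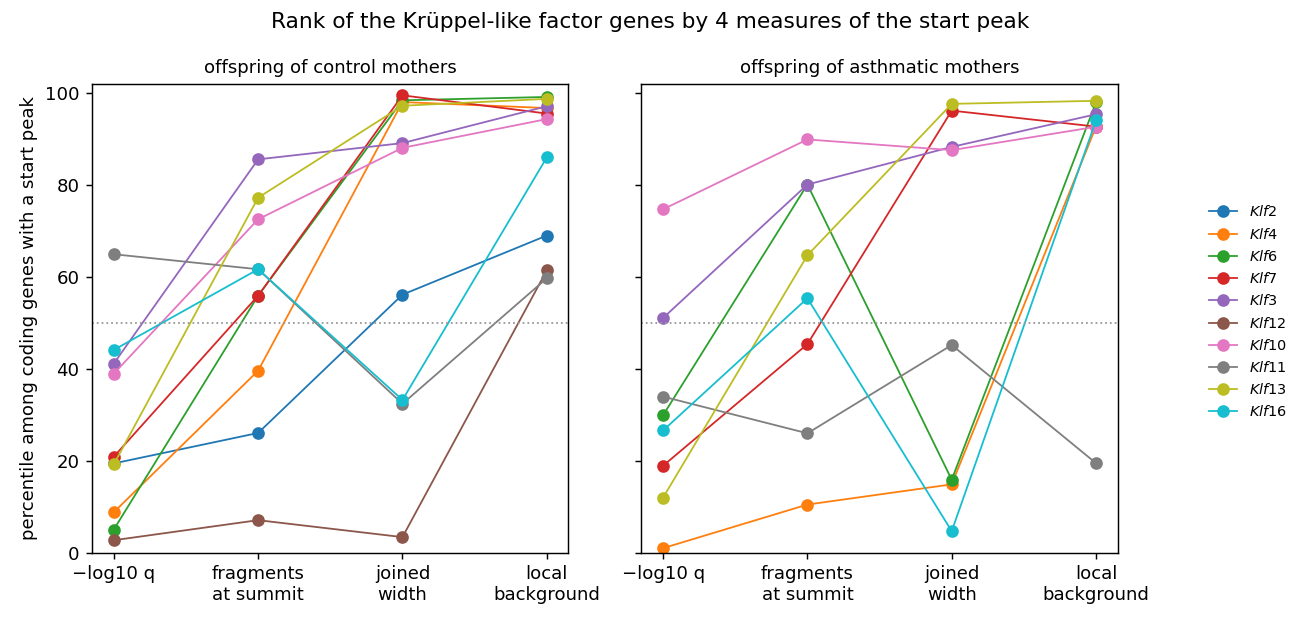
Percentile of each member (coloured lines) among coding genes with a start peak by −log10 q, fragments at the summit, joined width and solved local background, for the control library (left, 10 members) and the maternal-asthma library (right, 8 members), with a dotted line at 50. In the left panel the medians from left to right are 20.1, 58.8, 88.6 and 94.9, and in the right panel the point of Klf11 for the background stands apart at 19.4.

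Between the libraries the rank by −log10 q moved both ways. It was higher in the control library at 5 of 8 members, with a median shift of 4.61 percentile points, beside 4.97 (interquartile range -12.0 to 24.8) over coding genes. The shifts ran from -35.7 at Klf10, which stood at 38.9 in the control library and 74.7 in the maternal-asthma library, to 31.0 at Klf11, which stood at 64.9 and 33.9. Klf6 moved by -24.9 points and Klf3 by -9.91, while Klf16 moved by 17.5. The control rank of Klf6 left out its stronger intronic peak, and with starts taken within 2000 bp Klf6 stood at 16.1 in the control library and 30.0 in the maternal-asthma library. The strongest peaks of Klf10 in the lists had summits 613 bp apart. By solved fragments Klf10 stood above Klf11 in both libraries, at 72.5 and 89.9 against 61.6 and 25.9.

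The other 16 genes of the KLF and SP family were read in the same way. In the control library 10 of 16 had a start peak, namely Klf1, Klf5, Klf8, Klf9, Sp1, Sp2, Sp3, Sp4, Sp6 and Sp8, and in the maternal-asthma library 7 of 16, the same without Klf1, Klf8 and Sp8. Klf14, Klf15, Klf17, Sp5, Sp7 and Sp9 had none in either list. Their median joined width was 816 bp (218 to 2355, n = 10) in the control library and 573 bp (273 to 1181, n = 7) in the maternal-asthma library, between the members and all coding genes in both lists. Sp3, a ubiquitous GC-box factor, had 2355 and 661 bp, wider than any member in the control library. Its relatives Sp1 and Sp4 had 1580 and 534 bp, and 1888 and 1181 bp. Klf9, a hormone-induced repressor, had 1453 and 573 bp, and Klf5, a factor of epithelial growth, 946 and 646 bp. The median percentile by −log10 q was 30.8 and 52.9, above the members in both lists. Klf1, the erythroid factor, was marked only weakly, by a control peak of 218 bp at the 9.20th percentile.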

How the data were processed

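H3K4me3 in lung ILC2s was measured in 1 library per group. The authors used Trim Galore and Cutadapt for trimming, Bowtie 2 for alignment (GRCm38) and Sambamba to take out duplicates. The peak caller and its settings are not given in the sources used here. The study's reporting summary says that peaks were not called on the ChIP-seq data, yet a list was deposited for each library, and every value here rests on those lists. The deposited lists give a score (10 times the −log10 q, rounded down for nearly all peaks), a fold (a ratio of the summit to the caller's background) and, on the −log10 scale, the p-value and q-value of each peak. Whether these were scaled between libraries is not stated, so they were ranked within a list.

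Members and lists were chosen with earlier results of these data known. Peaks, counted from 1, were set against GENCODE M21 starts (1000 bp) and joined over gaps of at most 1000 bp. The fragments x and background were solved from fold and p under a Poisson model with 1 added to both, which matched 100% of the 9957 and 8150 strongest start peaks of coding genes within 0.001. Copies of 75 bases around each summit were counted on 21 chromosomes. Named genes are the 10 members, 16 other family genes and cell type markers. The neighbouring genes named have a start within 1000 bp of a peak described. Solving and joining were tested on simulated data, which returned 299 of 299 peaks and 200 of 200 genes. Scripts ran under Python 3.11.15 (scipy 1.17.1, numpy 2.4.6, pandas 2.3.3) with plots from matplotlib 3.10.9. Coverage tracks were not used here.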

Additional observations from a re-analysis of the deposited data

How the results depend on the processing

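No paired analysis was possible because each group had 1 library, and no replicate could be left out. Start peaks stood at 10 and 8 members within 500 bp, at 9 and 7 with a −log10 q of at least 5, and at 10 and 9 within 2000 bp, where the maternal-asthma peak upstream of Klf12 counted and the median joined width of that list fell to 378 bp. Among the 10000 peaks of highest −log10 p of each list, 5 and 0 peaks fell on the members and 4 and 0 members kept a start peak, with 0% of the control peaks overlapping the other list and no share for the other list. The shares of coding genes with a start peak under these settings are not given here, so these counts cannot be set against them. Among peaks reaching a −log10 q of 5, the median width ratio was 3.18, the median width in the maternal-asthma library 365 bp and the overlapping share of its member peaks, at starts or not, 100%, against 92.9% of all 14. Without joining, the ratio was 2.47, beside 1.55 over 9068 coding genes, and the widths 518.5 and 347 bp. The ratio at Klf7, 1.73 as reported, turned to 0.947 at a −log10 q of at least 5 and to 0.863 without joining. With an overlap of at least 50% of both peaks, the shares of all 22 and 14 member peaks, at starts or not, were 22.7% and 35.7%, against 54.5% and 92.9% with 1 bp. The median percentile was 88.6 and 66.3 by width, 10.7 and 12.9 by fold, and 58.8 and 60.0 by solved fragments, an alternative chosen after seeing the data. The cause was not tested. Of 277 values of single members under these alternatives, 210 stayed within the limits set, 65 moved and 2 reversed. Whether depth or enrichment bears on missing peaks was not tested.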

Other observations

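Beyond the peaks taken at the members, the 20000 bp on either side held the strongest mark near any of them 7697 bp upstream of Klf10. The control peak there, chr15:38308403-38308691, had fold 16.0 and −log10 q 41.9, at percentile 99.5 of its list. The maternal-asthma peak, chr15:38308431-38308698, had fold 18.1 and −log10 q 47.2, at percentile 99.6 of its list. Of their bases 90.0% and 89.2% were repeat-masked, and the 75 bases around their summits had 4 and 1 further copies. No annotated start lay within 1000 bp of either peak. Downstream of Klf6, 2 peaks in each list lay wholly in repeat-masked DNA, with between 136 and 3085 further copies of the summit sequence. A control peak 11962 bp downstream of Klf4, with fold 4.25 and −log10 q 3.84, had no counterpart.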
